A study of Mus musculus with 6 samples.

Results

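The genes described here are 10 markers that are used to recognise quiescent hepatic stellate cells, most of them secreted proteins or surface receptors: Reln, Ngfr, Hgf, Ecm1, Colec11, Vipr1, Angptl6, Pth1r, Rgs5 and Mcam. Each gene was represented by the probe set that names it alone and has the highest mean over the 6 arrays. That rule found 9 of the 10 among 22180 genes with such a probe set. Angptl6 shares its only probe set with Shfl and has no value of its own. All 9 lay above the limit on low signal, a mean of 4.70, and were among the 15526 genes tested. The medians of the arrays over these genes lay between 6.19 and 6.52. Ngfr, Vipr1 and Colec11 had means of 6.14, 6.37 and 5.92, near or below those medians. Whether signals of this size exceed background was not tested. Rgs5 encodes a protein of the cell interior, so it is neither secreted nor a surface marker.

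Stellate cells store vitamin A and sit as pericytes around the liver sinusoid. In culture on plastic, as in injured liver, they turn into contractile myofibroblasts that deposit collagen, and the quiescent phenotype is lost. The marker genes cover several signals that pass between stellate cells, hepatocytes, nerves and the sinusoidal lining. HGF is the hepatocyte mitogen that acts through the receptor MET, NGFR is a receptor for neurotrophins, and collectin-11 starts the lectin branch of complement.

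The study measured RNA of mouse stellate cells on 6 Affymetrix arrays, 1 for each of 3 states in old mice (6 to 9 months) and young mice (8 to 11 weeks). The PRI-724 cells were activated by over 20 days of culture and received C-82, the active form of PRI-724, at 10 µM in dimethyl sulfoxide. PRI-724 blocks the binding of beta-catenin to its coactivator CBP. The vehicle cells had the same culture without C-82, and the quiescent cells came from normal liver and had been plated for 12 h. Cells of 5 mice were pooled in each sample, and the strain, sex and time of exposure to C-82 are not given in the labels. The pools were primary isolates with no sort or purity named in the labels.

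Each age and state has 1 array, so the spread within a group is unknown. Values are log2 signals as deposited, and a difference of 1 log2 unit is 2-fold. Differences between states were tested with limma on a model with age and state, so that the standard error (SE) is set by the disagreement between old and young mice over all 3 states, moderated by the other genes. The threshold was an adjusted p of 0.05 over the 15526 genes. The young PRI-724 array had a narrower range of signal than the other 5. Its interquartile range was 1.71 log2 units over the tested genes, and that of the others lay between 2.11 and 2.43.

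The RefSeq promoters of 3 genes are shown because these genes moved in different patterns across the same 3 states. Rgs5 fell in culture and was lowest with PRI-724, Colec11 fell in culture, and Mcam rose in culture and fell with PRI-724. Each line holds the 250 bases before an annotated RefSeq start in GRCm38.p6, written from 5′ to 3′ on the gene's strand. Capitals mark a match to a searched motif. The start used for Colec11 lies inside the annotated gene, which ends at 28623458, so part of its window lies within the gene.

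Rgs5 (chr1:169655251-169655500, forward strand): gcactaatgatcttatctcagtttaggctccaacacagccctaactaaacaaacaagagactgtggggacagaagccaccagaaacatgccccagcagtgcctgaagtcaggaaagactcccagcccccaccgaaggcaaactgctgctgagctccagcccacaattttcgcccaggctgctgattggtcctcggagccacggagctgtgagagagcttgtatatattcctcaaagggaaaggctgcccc

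Colec11 (chr12:28623331-28623580, reverse strand): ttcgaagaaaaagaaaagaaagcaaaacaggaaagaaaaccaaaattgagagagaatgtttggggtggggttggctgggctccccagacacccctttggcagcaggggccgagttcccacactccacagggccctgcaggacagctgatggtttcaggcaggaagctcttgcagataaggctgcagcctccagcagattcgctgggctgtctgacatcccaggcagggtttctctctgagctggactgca

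Mcam (chr9:44134408-44134657, forward strand): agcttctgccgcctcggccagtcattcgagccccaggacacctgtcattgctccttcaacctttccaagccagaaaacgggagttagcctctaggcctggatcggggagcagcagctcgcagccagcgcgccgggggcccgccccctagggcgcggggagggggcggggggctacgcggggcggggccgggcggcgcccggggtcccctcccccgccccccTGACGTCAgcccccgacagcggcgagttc

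The motifs searched on both strands were the TCF/LEF site, spelled either CTTTGAA or else CTTTGAT, as well as CTTTGTA or lastly CTTTGTT, the cyclic AMP response element TGACGTCA, the AP-1 site TGANTCA and the TEAD site GGAATG. The motifs were chosen with these promoters in view, and no match overlapped another. The Mcam window holds the cyclic AMP response element at 29 to 22 bases before the start, and 1.55% of 32851 promoter windows of the same length hold it. The Ecm1 window holds an AP-1 match, TGAGTCA, at 64 to 58 bases before the start, and 6.75% of windows hold such a match. That window lies inside the annotated Ecm1 gene. The other 10 of 12 windows of the 9 genes, Rgs5 and Colec11 included, hold none of these letters. TCF/LEF letters occur in 14.8% of all windows and TEAD letters in 12.6%. A match is a run of letters and was not tested for binding.

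The first comparison asked whether the markers were lost in culture. Of the 9 genes, 2 were lower in vehicle cells than in quiescent cells, Rgs5 and Colec11. Another 3 were higher, Mcam, Hgf and Pth1r, and Reln, Ngfr, Ecm1 and Vipr1 did not pass the test. Among all tested genes 5.87% passed the same test, 1.26% lower and 4.61% higher. The median difference of the 9 genes was -0.22 log2 units, beside 0.04 for all tested genes. In these bulk samples, fewer cells of a type and less RNA per cell cannot be told apart.

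Rgs5 speeds the shut-off of G protein signals and is a marker of pericytes. Its signal was 8.01 in old and 7.02 in young PRI-724 cells, 8.80 in old and 8.62 in young vehicle cells, and 10.48 in old and 10.26 in young quiescent cells. Both quiescent arrays lay above both vehicle arrays, and these lay above both PRI-724 arrays. The vehicle minus quiescent difference was -1.66 ± 0.29 log2 units (SE, n = 2 pairs), or 3.16-fold lower, with an adjusted p of 0.0137. The pairs gave -1.68 in old and -1.65 in young mice. Without the young quiescent array the difference was -1.47 with an adjusted p of 0.0518.

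A second probe set that names Rgs5 alone gave the same order. It read 5.94 in old and 5.35 in young PRI-724 cells, 6.97 and 6.68 in old and young vehicle cells, and 8.66 and 8.06 in old and young quiescent cells. Its vehicle minus quiescent differences were -1.69 in old and -1.38 in young mice. No other member had a second probe set of its own.

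Colec11 encodes collectin-11, a secreted lectin that binds sugars on microbes and carries the proteases of the lectin pathway. It had 5.57 in old and 5.59 in young PRI-724 cells, 5.24 in old and 5.66 in young vehicle cells, and 6.48 in old and 6.99 in young quiescent cells. Only the quiescent arrays stood above 6. Its vehicle minus quiescent difference was -1.29 ± 0.26 (2.44-fold lower, adjusted p = 0.0215), with -1.24 in old and -1.33 in young mice. The adjusted p was 0.103 without the young quiescent array (-1.14), 0.103 without the young vehicle array (-1.36) and 0.0780 without the old vehicle array (-1.21).

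Mcam, or CD146, is an adhesion molecule of endothelium and pericytes. It went against the label of a quiescent marker, with 6.89 in old and 5.99 in young PRI-724 cells, 8.12 in old and 8.23 in young vehicle cells, and 6.32 in old and 6.87 in young quiescent cells. The vehicle arrays were the highest at both ages. The gene was 1.58 ± 0.36 log2 units higher in vehicle than in quiescent cells (2.99-fold, adjusted p = 0.0335), with 1.80 in old and 1.35 in young mice. The call was lost without the young vehicle array (1.44, adjusted p = 0.138) or the old quiescent array (1.10, adjusted p = 0.276).

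Hgf had 8.94 in old and 9.32 in young PRI-724 cells, 9.87 in old and 9.51 in young vehicle cells, and 7.89 in old and 8.82 in young quiescent cells. The quiescent arrays were the lowest at both ages. Hgf rose by 1.33 ± 0.32 in vehicle over quiescent cells (2.52-fold, adjusted p = 0.0414). The rise was 1.98 in old and 0.69 in young mice, and this age difference was not tested. The call was lost without the old vehicle array (0.83, adjusted p = 0.299), the old quiescent array (0.87, adjusted p = 0.354), the old PRI-724 array (adjusted p = 0.0986) or its young counterpart (adjusted p = 0.0982), the last 2 with an unchanged difference of 1.33.

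Pth1r, the receptor for parathyroid hormone and its related protein, had 7.15 in old and 7.003 in young PRI-724 cells, 7.19 in old and 7.42 in young vehicle cells, and 6.08 in both old and young quiescent cells. All 4 cultured arrays lay above both quiescent arrays. The vehicle minus quiescent difference was 1.22 ± 0.27 (2.34-fold, adjusted p = 0.0304), with 1.10 in old and 1.34 in young mice. Its call was lost without any 1 of the 6 arrays, with differences from 1.07 to 1.38 and adjusted p from 0.0518 to 0.391.

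**Figure D1:**
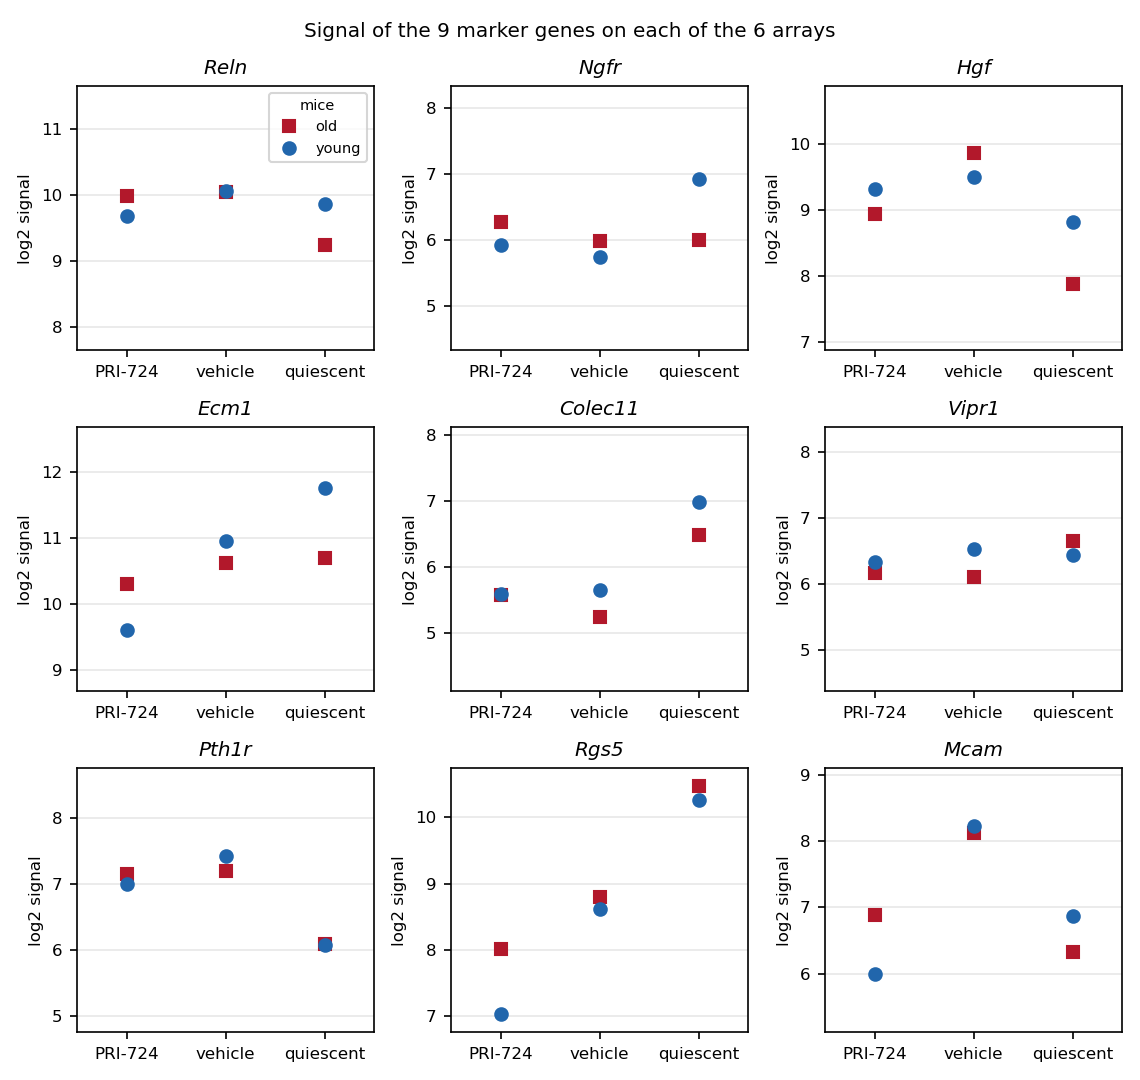
Log2 signal (y axis, each panel spans 4 units) of the 9 marker genes in PRI-724, vehicle and quiescent cells (x axis), with 1 array for each point, squares for old and circles for young mice. Rgs5 and Colec11 are highest in quiescent cells, at 10.48 and 10.26 and at 6.48 and 6.99 in old and young mice, and Mcam is highest in vehicle cells, at 8.12 and 8.23.

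The remaining 4 genes did not pass the test between vehicle and quiescent cells. Ecm1, a secreted glycoprotein reported to hold latent TGF-beta inactive in mouse liver, had 10.31 in old and 9.61 in young PRI-724 cells, 10.62 in old and 10.95 in young vehicle cells, and 10.70 in old and 11.75 in young quiescent cells. The old vehicle and quiescent arrays differed little, at -0.08, and the young pair stood at -0.80. The fitted difference was -0.44 ± 0.34 (adjusted p = 0.488, 95% interval -1.20 to 0.31). Without the old quiescent array it was -1.06 with an adjusted p of 0.0121.

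Ngfr, the low-affinity neurotrophin receptor that stellate cells share with nerve cells, had 6.27 in old and 5.93 in young PRI-724 cells, 5.99 in old and 5.74 in young vehicle cells, and 5.998 in old and 6.92 in young quiescent cells. The young quiescent array alone stood above the other 5. The vehicle minus quiescent difference was -0.01 in old and -1.18 in young mice, with a fitted value of -0.59 ± 0.34 (adjusted p = 0.337, 95% interval -1.34 to 0.16).

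Reln, the secreted ligand that separates stellate cells from portal myofibroblasts in many studies, had 9.99 in old and 9.68 in young PRI-724 cells, 10.04 in old and 10.06 in young vehicle cells, and 9.24 in old and 9.86 in young quiescent cells. Its signal stayed within 0.82 log2 units over the 6 arrays, and 46.8% of tested genes had a smaller span. The vehicle minus quiescent difference was 0.50 ± 0.27 (adjusted p = 0.309), with a 95% interval of -0.10 to 1.10. The difference was 0.11 (adjusted p = 0.995) without the old quiescent array and 0.88 (adjusted p = 0.211) without the young one.

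Vipr1, a receptor for vasoactive intestinal peptide, had 6.17 in old and 6.33 in young PRI-724 cells, 6.11 in old and 6.53 in young vehicle cells, and 6.65 in old and 6.44 in young quiescent cells. Its span of 0.54 was the smallest of the 9 genes. The vehicle minus quiescent difference was -0.22 ± 0.27 (adjusted p = 0.682), with -0.54 in old and 0.10 in young mice.

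The probe set that Angptl6, a secreted angiopoietin-like factor, shares with Shfl read 6.36 in old and 6.56 in young PRI-724 cells, 6.03 in old and 5.85 in young vehicle cells, and 6.499 in old and 6.72 in young quiescent cells. Vehicle minus quiescent was -0.47 in old and -0.87 in young mice. These values cannot be given to either gene, and no test was made.

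Without a test, 2 of the 9 genes were at least 2-fold lower in vehicle than in quiescent cells in both ages, Rgs5 and Colec11, beside 1.15% of tested genes. Another 2, Mcam and Pth1r, were at least 2-fold higher in both ages, beside 4.06% of tested genes. At a limit of 1.5-fold in both ages, 2 were lower and 3 higher, beside 4.14% and 11.4% of tested genes. The 2 ages had opposite signs for 1 member, Vipr1, beside 25.9% of tested genes. With cyclic loess of the arrays 2 of the 5 calls were left, Rgs5 and Colec11, and Mcam, Pth1r and Hgf had adjusted p of 0.0615, 0.0580 and 0.111. With quantile normalization Rgs5 alone was left.

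Other stellate genes moved with culture too. Of 11 tested genes for stellate identity, vitamin A storage and the pericyte phenotype, 6 rose, 0 fell and the median was 1.60. Lrat, which makes retinyl esters, rose by 1.34 ± 0.31 and Des, desmin, by 2.39 ± 0.38, while Gfap stood at -0.04 ± 0.27. The list's mean signal was 8.55 in old and 8.54 in young vehicle cells, against 7.44 in old and 7.03 in young quiescent cells. Hepatocyte genes were lower in vehicle cells, 3 of 9 past the test, with a mean signal of 7.04 in old and 5.22 in young vehicle cells, against 9.79 in old and 6.56 in young quiescent cells. Of 12 genes of sinusoidal endothelium 2 rose and 0 fell in culture, and of 12 macrophage genes 1 rose and 0 fell. Of 8 pan-endothelial genes 2 rose and 0 fell, with 3 positive and 5 negative differences (median -0.20). Of 7 genes of activated stellate cells 4 rose, Acta2, Col1a1, Timp1 and Lox, and 0 fell (median 2.58). Of 6 mesothelial genes 2 rose, Upk1b by 2.48 and Gpm6a by 1.24, and 0 fell (median 0.99). Of 5 portal fibroblast genes 1 rose, Fbln2 by 1.89, and 0 fell. Beside these counts, 4.61% of all tested genes were higher and 1.26% lower in vehicle than in quiescent cells. The part of the makeup of the pools in the marker differences was not tested.

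**Figure D2:**
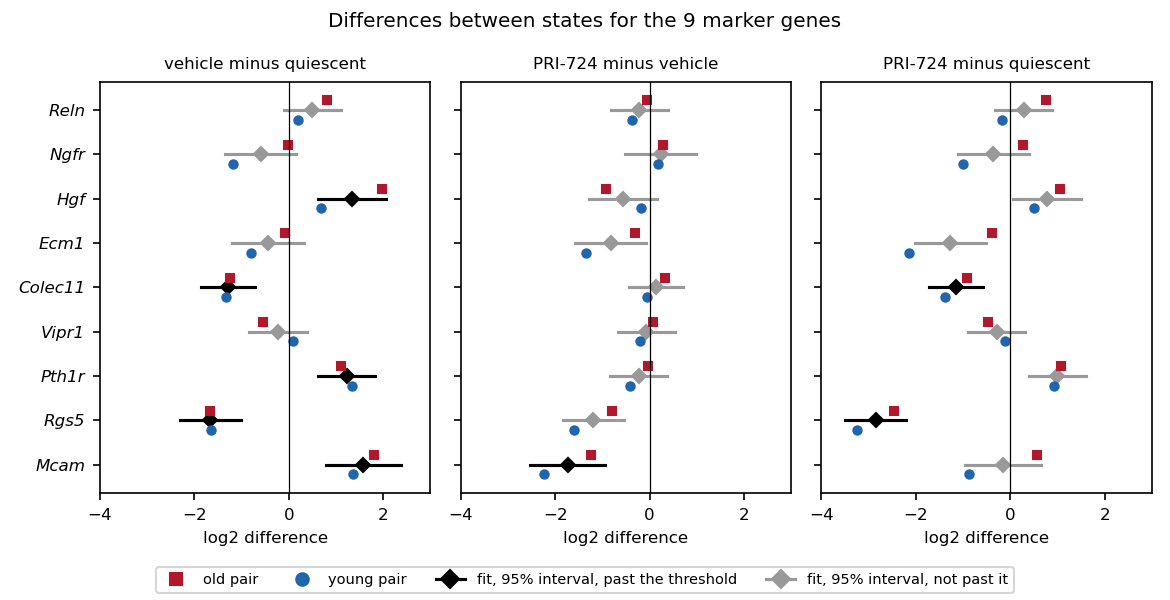
Log2 differences (x axis) of the 9 marker genes (y axis) for vehicle minus quiescent, PRI-724 minus vehicle and PRI-724 minus quiescent. Squares and circles are the old and young pair, and diamonds are the fitted difference with its 95% interval, black where the adjusted p is under 0.05. The Rgs5 diamond lies at -1.66, -1.19 and -2.85 in the 3 panels, and the Mcam diamond at 1.58, -1.73 and -0.16.

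Activated cells with PRI-724 were next set against those with vehicle, to ask how the markers responded to the drug. Mcam fell and none of the other 8 genes passed the test. Among all tested genes 2.2% passed, 1.93% lower and 0.271% higher. The median difference of the 9 genes was -0.23, beside -0.05 for all tested genes. Mcam fell by 1.73 ± 0.36 log2 units (SE, n = 2 pairs) with PRI-724 (3.33-fold, adjusted p = 0.0396), with -1.24 in old and -2.23 in young mice. The call was lost when the PRI-724 array of young mice was left out (-1.12, adjusted p = 0.519), without the young vehicle array (-1.60, adjusted p = 0.0876) with cyclic loess (-1.49, adjusted p = 0.101) and with quantile normalization (-1.57, adjusted p = 0.139). With that PRI-724 array left out, 0 of the 15526 genes passed limma's threshold, and 997 had an unadjusted p under 0.05.

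Genes of the vascular lining fell with PRI-724 as well. In this comparison 1.93% of all tested genes were lower and 0.271% higher. Of 8 pan-endothelial genes 7 fell, and the mean signal of the list was 7.99 in old and 6.84 in young PRI-724 cells, against 9.46 in old and 9.45 in young vehicle cells. Of 12 genes of sinusoidal endothelium 11 fell, with a mean of 6.19 in old and 5.70 in young PRI-724 cells, against 8.90 in old and 9.30 in young vehicle cells. Of 12 macrophage genes 9 fell, with 6.01 in old and 5.75 in young PRI-724 cells, against 8.58 in old and 8.75 in young vehicle cells. Cdh5, the cadherin of endothelial junctions, had a signal of 10.30 in old and 8.30 in young PRI-724 cells, 11.87 in old and 11.76 in young vehicle cells, and 12.30 in old and 12.73 in young quiescent cells. Its RNA was thus measured in all 3 states of samples labelled as stellate cells. Of 11 stellate genes 2 passed the test, Lrat at -1.69 and Tcf21 at -1.84. In that list 9 genes had a negative and 2 a positive difference (median -0.545). Of 7 genes of activated stellate cells 0 passed, and all 7 had a negative difference (median -1.30). Mcam is expressed in endothelium and pericytes, and the part of these lists in its fall was not tested.

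Rgs5 stood at -1.19 ± 0.29 with PRI-724 over vehicle (adjusted p = 0.0740), with -0.79 in old and -1.60 in young mice. Its second probe set gave -1.03 in old and -1.34 in young mice. Leaving out the young or the old quiescent array kept the difference of -1.19, which then passed the test. Neither array enters this difference, and only the estimate of its error changed. Leaving out a cultured array gave differences from -0.80 (adjusted p = 0.605, young PRI-724 array) to -1.59 (adjusted p = 0.0542, old PRI-724 array). Ecm1 stood at -0.83 ± 0.34 (adjusted p = 0.280), with -0.31 in old and -1.34 in young mice. Ecm1 passed the test at the same difference without the young or the old quiescent array. Here too neither array enters the difference, and only the estimate of its error changed. The difference was -0.13 (adjusted p = 0.979) without the PRI-724 array of young mice and -1.52 (adjusted p = 0.0801) without that of old mice.

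The other 2 genes that had risen in culture did not pass the test with PRI-724. Hgf stood at -0.56 ± 0.32 (adjusted p = 0.445), with -0.93 in old and -0.19 in young mice, and stood at -1.07 when the young and -0.05 when the old vehicle array was omitted. Pth1r stood at -0.23 ± 0.27 (adjusted p = 0.710, 95% interval -0.83 to 0.38). Colec11 stood at 0.13 ± 0.26 (adjusted p = 0.838, 95% interval -0.44 to 0.71).

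Reln at -0.22 ± 0.27, Ngfr at 0.23 ± 0.34 and Vipr1 at -0.07 ± 0.27 completed the 9 genes, with adjusted p from 0.722 to 0.932. Without a test, Mcam was the 1 member at least 2-fold lower in both ages, beside 2.36% of tested genes, and 0 members were at least 2-fold higher, beside 0.367%. At 1.5-fold in both ages, 2 were lower, Mcam and Rgs5, beside 6.03%, and 0 higher, beside 1.73%. The 2 ages had opposite signs for 2 members, Colec11 and Vipr1, beside 39.1% of tested genes. In the young pair alone 3 genes were at least 2-fold lower, Ecm1, Rgs5 and Mcam, beside 12.3% of tested genes, and in the old pair alone 1, Mcam, beside 2.84%.

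**Figure D3:**
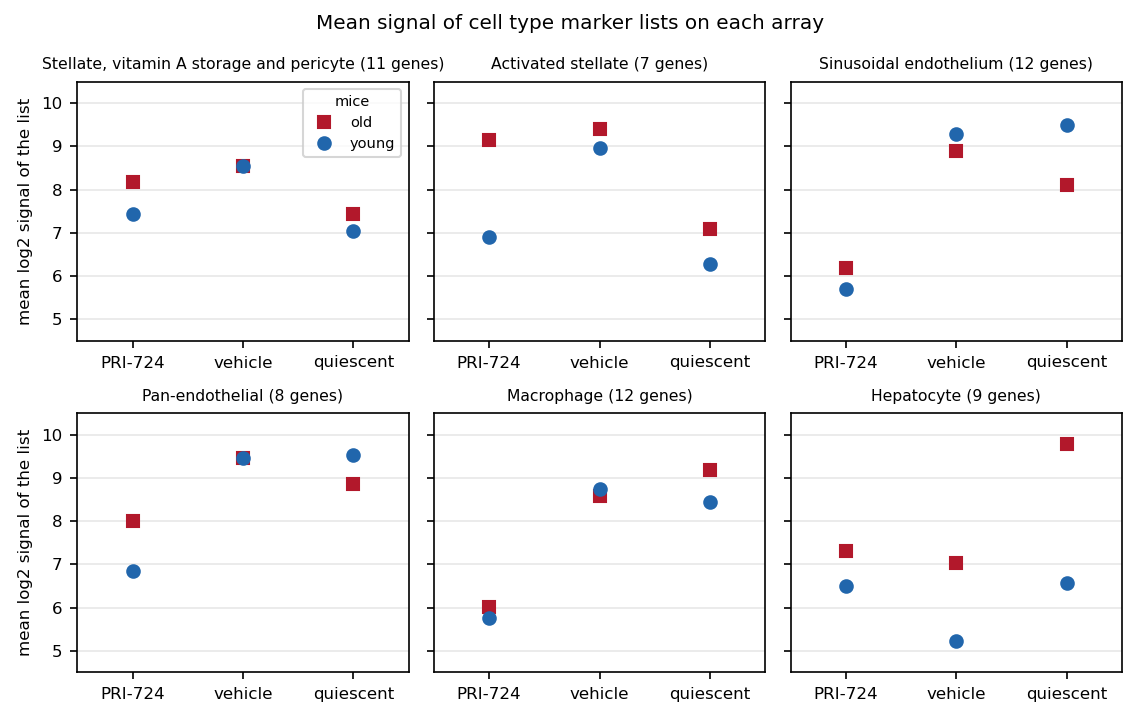
Mean log2 signal (y axis) of 6 lists of cell type genes in PRI-724, vehicle and quiescent cells (x axis), 1 point for each array. The sinusoidal endothelial list lies at 6.19 in old and 5.70 in young PRI-724 cells, below all 4 other arrays, which range from 8.11 to 9.49.

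The third comparison set PRI-724 cells against quiescent cells and asked which markers PRI-724 left away from their quiescent level. Rgs5 and Colec11 were lower, 0 of the 9 genes were higher, and 3.72% of all tested genes passed, 2.43% lower and 1.28% higher. This comparison shares its arrays with the other 2, and its values are not independent of theirs. Rgs5 fell by 2.85 ± 0.29 log2 units (7.23-fold, adjusted p = 0.000964), with -2.47 in old and -3.24 in young mice, and its second probe set gave -2.71 in both. Leaving out the PRI-724 array of young mice gave -2.46 and an adjusted p of 0.107.

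Colec11 fell by 1.15 ± 0.26 (2.23-fold, adjusted p = 0.0391), with -0.92 in old and -1.39 in young mice. Its call was lost without the young quiescent array (-1.01, adjusted p = 0.306), the young PRI-724 array (-0.94, adjusted p = 0.194) or the old PRI-724 array (-1.37, adjusted p = 0.102). Quantile normalization (adjusted p = 0.0577) and the fit with no filter on low signal (adjusted p = 0.0583) ended it too. Pth1r stood at 0.997 ± 0.27 (adjusted p = 0.0798), with 1.07 in old and 0.92 in young mice, and Hgf at 0.78 ± 0.32 (adjusted p = 0.261), or 1.24 when the young and 0.31 when the old quiescent array was omitted. Mcam stood at -0.16 ± 0.36 (adjusted p = 0.915), with 0.57 in old and -0.88 in young mice.

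In the same comparison 9 of 12 sinusoidal endothelial, 6 of 8 pan-endothelial and 11 of 12 macrophage genes fell. Among all tested genes 2.43% were lower and 1.28% higher. Of 11 stellate genes 2 rose, Des by 1.84 and Cygb by 1.79, and 0 fell. Of 7 genes of activated stellate cells 3 rose, Acta2 by 1.84, Timp1 by 2.33 and Lox by 3.06, and 0 fell. The part of these lists in the marker differences was not tested.

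Ecm1 stood at -1.27 ± 0.34 (adjusted p = 0.0758), with -0.40 in old and -2.14 in young mice. It passed the test at the same difference without the young or the old vehicle array. Neither array enters this difference, and only the estimate of its error changed. It also passed, at -1.88, without the old quiescent array, which left the young array as the only quiescent one. The difference was smaller, and did not pass, when the young array of the PRI-724 cells (-0.57) or of the quiescent cells (-0.65) was omitted. With the old array of the PRI-724 cells omitted it stood at -1.96 and did not pass. Reln, Ngfr and Vipr1 had differences of 0.28, -0.36 and -0.29, with adjusted p from 0.710 to 0.719. Without a test, Rgs5 was the 1 member at least 2-fold lower in both ages, beside 2.22% of tested genes, and 0 members were higher, beside 1.42%. At 1.5-fold, 2 were lower, Colec11 and Rgs5, beside 4.37%, and Pth1r was higher, beside 5.33%. The 2 ages had opposite signs for 3 members, Reln, Ngfr and Mcam, beside 44.3% of tested genes.

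The order of the states can be given for each gene from the means of the 2 ages. Rgs5 had 7.51 in PRI-724, 8.71 in vehicle and 10.37 in quiescent cells, and of the neighbours in that order vehicle and quiescent cells passed the test, while PRI-724 and vehicle cells had an adjusted p of 0.0740. Ecm1 had the same order, with 9.96, 10.78 and 11.23, and no neighbours passed the test. Mcam had 6.44, 8.17 and 6.60, and its vehicle level stood apart from both of the other states. Pth1r had 7.08, 7.31 and 6.08 and Hgf 9.13, 9.69 and 8.35, and in both the vehicle and quiescent levels differed. Colec11 had 5.58, 5.45 and 6.73, and its quiescent level stood apart from both cultured states. Reln, Ngfr and Vipr1 had no pair of states that passed the test.

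Age was compared over the 3 states. Of the 9 genes 0 passed the test between old and young mice (limma), 0 had an unadjusted p under 0.05, and among all tested genes 0.515% passed, 0.264% higher and 0.251% lower, and 10.4% had an unadjusted p under 0.05. The largest difference in size was that of Rgs5, 0.46 ± 0.24 higher in old mice (adjusted p = 0.554), and it was higher in old mice in all 3 states, as 21% of tested genes were, by 0.99 with PRI-724, 0.18 with vehicle and 0.21 in quiescent cells. In quiescent cells alone, Ecm1 was 1.05, Hgf 0.93, Ngfr 0.93, Reln 0.62, Mcam 0.55 and Colec11 0.50 log2 units lower in old mice. Vipr1 was 0.21 and Pth1r 0.004 higher there. With PRI-724, Mcam was 0.89, Ecm1 0.70, Ngfr 0.34 and Reln 0.31 higher in old mice, and Hgf 0.38 and Colec11 0.03 lower. With vehicle, Hgf was 0.36 and Ngfr 0.245 higher, and Colec11 0.41, Ecm1 0.335, Mcam 0.10 and Reln 0.01 lower. The share of all tested genes with quiescent differences of this size was not counted. These are differences between 2 arrays, with no test. Beside them, the hepatocyte list had a mean signal of 9.79 in old against 6.56 in young quiescent cells, and the sinusoidal endothelial list 8.11 against 9.49. Their part in the age differences was not tested.

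Partner genes of the markers, 48 tested genes in 9 lists, gave 8 higher and 2 lower calls between vehicle and quiescent cells. Among all tested genes 4.61% were higher and 1.26% lower. With PRI-724 against vehicle cells 0 were higher and 5 lower, beside 0.271% and 1.93% of all tested genes. Against quiescent cells 1 was higher with PRI-724 and 4 lower, beside 1.28% and 2.43%. The part of the makeup of the pools in the partner differences was not tested. The lists name ligands, receptors and relatives of the markers and were drawn up with results of these data known.

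For the reelin receptors, Vldlr stood at 0.36 and Lrp8 at 0.05 between vehicle and quiescent cells, and 0 of 5 tested genes of the reelin list passed in any comparison. Met, the receptor of HGF, stood at 0.44 ± 0.29 in culture and at -0.81 ± 0.29 with PRI-724, and 0 of 8 genes of the HGF list passed. Nor did any of 3 genes in the list for vasoactive intestinal peptide or of 3 in that for parathyroid hormone. In the neurotrophin list 2 of 6 rose in culture. They were Sort1, sortilin, which joins NGFR in binding precursor neurotrophins, at 1.497 ± 0.29 (adjusted p = 0.0189), and Bex3, which binds the inner part of NGFR, at 1.68 ± 0.31 (adjusted p = 0.0174). Sort1 fell by 1.996 ± 0.29 with PRI-724 (adjusted p = 0.00799), and Bex3 stood at 0.25 ± 0.31. Both Sort1 calls rest on the probe set used, and both were lost when probe sets were averaged for each gene.

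In the lectin complement list, the partners of collectin-11 did not move one way. Masp1, whose protease travels with collectins, rose by 1.36 ± 0.23 in culture (adjusted p = 0.0125). Colec12, a membrane collectin that takes up ligands, fell by 1.54 ± 0.31 (adjusted p = 0.0214) and Fcna, a ficolin of the same pathway, by 1.49 ± 0.35 (adjusted p = 0.0369). Colec10, whose product pairs with collectin-11, stood at -1.10 ± 0.43 (adjusted p = 0.161). With PRI-724 over vehicle Colec12 fell by a further 1.80 ± 0.31 (adjusted p = 0.0192).

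Of the angiopoietin-like genes Angptl4, an inhibitor of lipoprotein lipase, rose by 3.04 ± 0.32 in culture (adjusted p = 0.00403) and fell by 1.95 ± 0.32 with PRI-724 (adjusted p = 0.0160). Angptl7 rose by 1.82 ± 0.43 in culture (adjusted p = 0.0394). Among 6 relatives of Rgs5, Rgs16 rose by 1.25 ± 0.30 in culture (adjusted p = 0.0402) and 0 fell. With PRI-724, Rgs1 fell by 2.05 ± 0.26 (adjusted p = 0.00391) and Rgs2 by 1.96 ± 0.40 (adjusted p = 0.0366). In the same comparison 9 of 12 macrophage genes fell (median -2.78), and their part in the falls of Rgs1 and Rgs2 was not tested. Of 8 MCAM ligands and other pericyte genes 2 rose and 0 fell in culture, 5 had a negative difference and the median was -0.26. Pdgfrb, a PDGF receptor, rose by 1.73 ± 0.26 (adjusted p = 0.00825) and Wnt5a, a Wnt ligand reported to bind MCAM, by 1.19 ± 0.28 (adjusted p = 0.0394). The laminin chain genes Lama5 and Lama4 stood at 1.07 (adjusted p = 0.0765) and -0.60. The channel genes Kcnj8 and Abcc9 stood at -0.96 and -0.71, the receptor Notch3 at -0.45 and Cspg4 at -0.06. None of these passed the test. Lama4 had 0.94 in old and -2.15 in young mice, Kcnj8 0.095 and -2.01, and Notch3 -0.006 and -0.90. The old and young pairs gave 0.75 and 1.40 for Lama5, and -0.54 and -0.87 for Abcc9.

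Of the 20 partner calls over the 3 state comparisons, the rise of Angptl4 in culture was kept in every alternative, and that of Pdgfrb was kept without any 1 array. Without the young PRI-724 array no call with PRI-724 was left, over vehicle or over quiescent cells. Of the 10 calls in culture 1 was left with age out of the model. With cyclic loess, with quantile normalization and with only the arrays compared, 5 were left each time. Some of the 10 were lost whichever 1 of the 6 arrays was left out. Rgs16 lost its call without any 1 array, Wnt5a kept its call in 1 of 6 such fits, and Sort1, Bex3 and Angptl7 in 2 of 6 each. Averaging the probe sets for each gene left 9 of the 10 calls in culture, all but Sort1. It left 3 of 5 calls with PRI-724 over vehicle, without Sort1 and Rgs2. Over quiescent cells it left 4 of 5, without Rgs2.

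**Figure D4:**
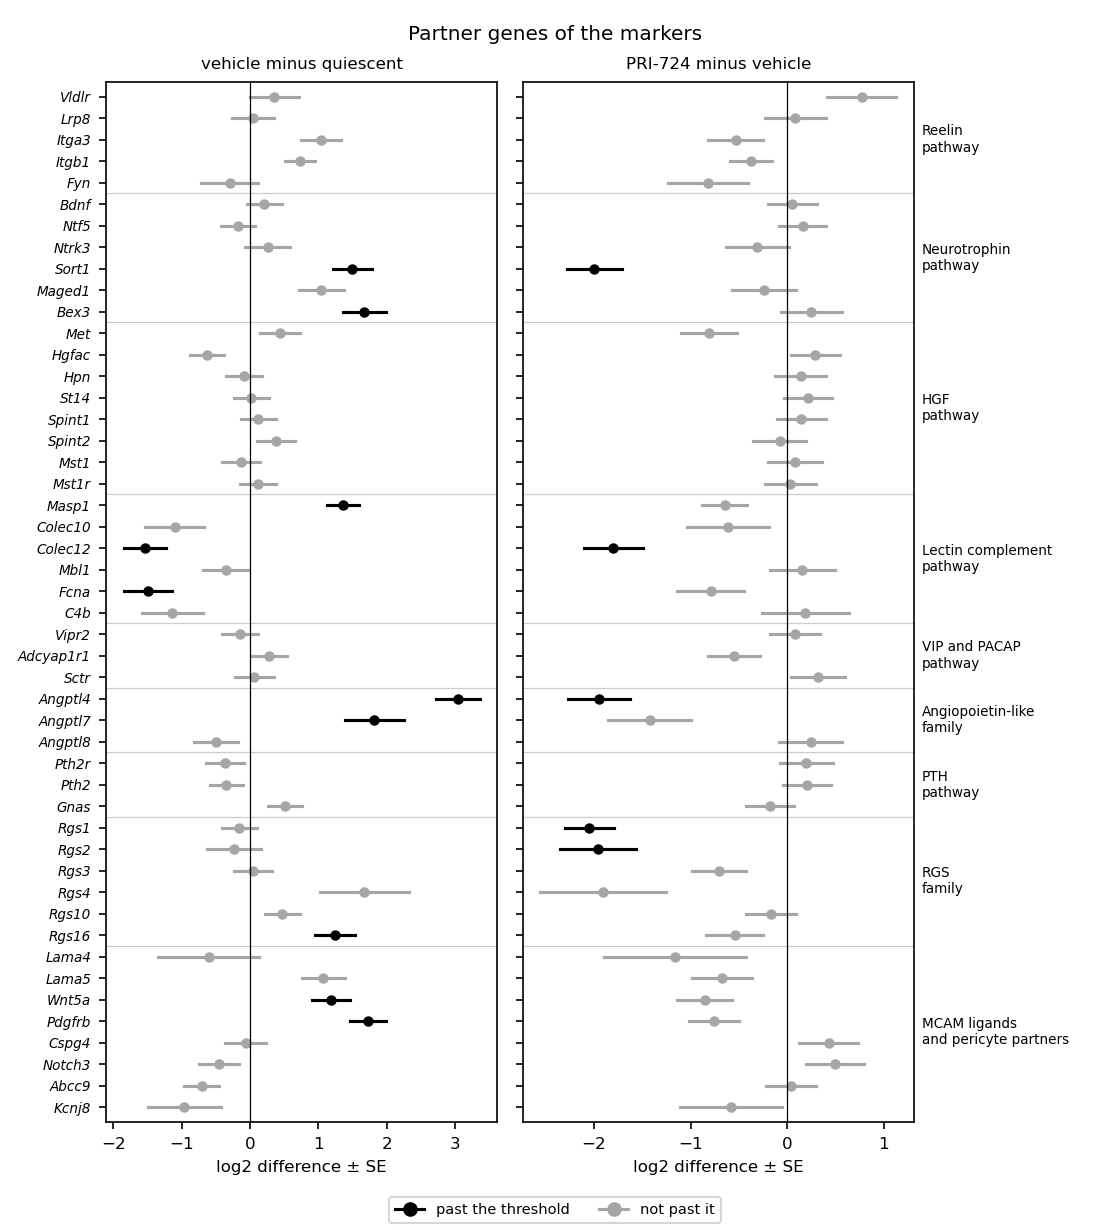
Log2 differences with their SE (x axis) of 48 partner genes (y axis, grouped by list) for vehicle minus quiescent on the left and PRI-724 minus vehicle on the right, black where the adjusted p is under 0.05. Angptl4 has the largest rise in culture, at 3.04, and the genes that fell with PRI-724 include Rgs1 at -2.05 and Sort1 at -1.996.

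Genes with the most similar profiles over the 6 arrays were looked up by Pearson's r among 5228 tested genes that span at least 1 log2 unit, for the 7 members with such a span. The arrays share states and mice, so these r values describe 6 points. Rgs5 was followed most closely by Jmy, Ing3 and Cd14, at r of 0.997, 0.995 and 0.993. Mcam was followed by Dse, Nostrin and Fes, at 0.999, 0.993 and 0.990, and Colec11 by Clec4e, Il1b and Gadd45b, at 0.992, 0.990 and 0.990. Pth1r came closest to Parva, Fkbp9 and Tspan6, at 0.996, 0.994 and 0.993, and Ecm1 to Rell1, Tbc1d22a and Pink1, at 0.998, 0.994 and 0.993. Hgf and Ngfr had less close matches, Rab42 at 0.956 and Rdh10 at 0.969. With 5228 candidates and 6 arrays, 146 genes reached an r of 0.95 with Ecm1, 112 with Pth1r and 80 with Mcam. The same r was reached by 42 genes with Rgs5, 25 with Colec11, 2 with Hgf and 2 with Ngfr.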

How the data were processed

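Log2 signals of 41345 probe sets on 6 arrays were deposited. Per the submitters' processing notes the authors made these log2 values with Affymetrix Expression Console and RMA, a method that gives 1 log2 signal for each probe set. Software versions: not given in the sources used here. Per the labels' protocols, total RNA came from an RNeasy kit and the biotin label from a GeneChip WT PLUS reagent kit.

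From there, 23521 probe sets with 1 gene symbol in the platform's table gave 22180 genes, 1 probe set a gene, that of highest mean. The 30% with the lowest mean (under 4.70) were left out. Differences were fitted with limma 3.58.1 in R 4.3.3 on age plus state with an intensity trend (2 residual and 7.76 prior degrees of freedom), with Benjamini-Hochberg adjustment over 15526 genes. Whether a pool is a biological replicate of the other age is an assumption of this model. The fit was tested on simulated data. The number of arrays limits the precision, and no detection calls were used. Alternatives were no filter, a 50% filter, the mean of probe sets, no trend, the other factor left out, only the arrays compared, cyclic loess, quantile normalization, a 1.5-fold limit, Spearman's rho and each array left out. All members were named, and partner genes were named where they passed the threshold or were a main receptor or ligand. The members and lists were chosen with earlier results of these data known. Promoters came from RefSeq (GRCm38.p6), and all 9 members matched. Figures used Python 3.11.15, pandas 2.3.3 and matplotlib 3.10.9.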

Additional observations from a re-analysis of the deposited data

Results flagged for a closer look

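In 6 differences between states the old and the young pair of arrays had opposite signs. With 1 array in each group this was not tested. Opposite signs were seen in 25.9% of all tested genes for vehicle minus quiescent, 39.1% for PRI-724 minus vehicle and 44.3% for PRI-724 minus quiescent. For PRI-724 minus quiescent, Mcam stood at 0.57 in old and -0.88 in young mice, Reln at 0.75 and -0.18, and Ngfr at 0.27 and -0.996. For PRI-724 minus vehicle, Colec11 stood at 0.32 in old and -0.06 in young mice, and Vipr1 at 0.067 and -0.20. For vehicle minus quiescent, Vipr1 stood at -0.54 in old and 0.10 in young mice.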

How the results depend on the processing

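Of 495 recomputed member differences 411 kept their direction and their side of the threshold. Of the rest, 42 lost a call, 11 gained one and 31 changed sign, all 31 in differences that had not passed the threshold. Most of the 36 member differences were not calls, and all 42 losses fell on calls. For vehicle minus quiescent the Pth1r call was kept in 4 of 14 recomputations, Hgf in 6, Colec11 and Mcam in 9 each and Rgs5 in 12. For PRI-724 minus vehicle Mcam was kept in 9 of 14. For PRI-724 minus quiescent Colec11 was kept in 8 of 14 and Rgs5 in 13. The 20 partner calls were kept in 198 of 280 recomputations and changed sign in 0. The arrays limit what can be called, since each fit has 1 to 4 residual degrees of freedom.

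For vehicle minus quiescent, 911 genes and 5 members passed. These became 114 and 0 without age in the model (5 members at an unadjusted p under 0.05), 481 and 3 with only the arrays compared, 482 and 2 with cyclic loess, 331 and 1 with quantile normalization, and 318 to 1230 and 2 to 3 with 1 array left out. For PRI-724 minus vehicle, 341 genes and 1 member became 91 and 0, 965 and 3, 103 and 0, and 84 and 0 in the same settings (2 members at an unadjusted p under 0.05 where 0 passed), and 0 to 968 and 0 to 3 with 1 array left out. For PRI-724 minus quiescent, 577 genes and 2 members became 217 and 1 without age and 1064 and 3 with only the arrays compared, 1 member with no filter or quantile normalization, and 0 to 1053 and 0 to 3 with 1 array left out (0 without the young PRI-724 array, where limma gave 2763 genes an unadjusted p under 0.05). For old minus young, 80 genes became 0 without state in the model (581 at an unadjusted p under 0.05), 2 higher and 5 lower (7) with cyclic loess, 4 higher and 8 lower (12) with quantile normalization, beside 41 higher and 39 lower as reported, and 0 to 343 with 1 array left out (0 without the young or the old PRI-724 array, where 1644 and 1642 had an unadjusted p under 0.05). At a 1.5-fold limit in both ages 3 members were higher and 2 lower in vehicle than in quiescent cells. At the same limit PRI-724 minus vehicle had 2 lower members, and PRI-724 minus quiescent had 1 higher and 2 lower. Of 21 most alike genes 1 was shared with Spearman's rho, but over 6 arrays many genes tie at the highest rho, so this overlap depends on the order of ties and shows nothing on stability.

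For vehicle minus quiescent, with 1 array left out, Ngfr ranged from -1.20 to 0.015, Ecm1 from -1.06 to 0.17 and Vipr1 from -0.47 to 0.027. For PRI-724 minus vehicle the ranges were -0.53 to 0.10 for Reln, -0.11 to 0.57 for Ngfr, -0.084 to 0.35 for Colec11 and -0.29 to 0.16 for Vipr1. For PRI-724 minus quiescent they were -0.10 to 0.67 for Reln, -0.97 to 0.25 for Ngfr and -0.77 to 0.45 for Mcam. For old minus young they were -0.32 to 0.15 for Reln, -0.34 to 0.29 for Ngfr, -0.69 to 0.18 for Ecm1, -0.29 to 0.027 for Vipr1, -0.12 to 0.077 for Pth1r and -0.33 to 0.40 for Mcam. With cyclic loess Vipr1 was 0.091 for PRI-724 minus vehicle and Mcam -0.071 for old minus young. With quantile normalization, PRI-724 minus vehicle was 0.001 for Reln, 0.15 for Vipr1 and 0.061 for Pth1r.
The cause of these changes was not tested.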
